A study of Mus musculus with 9 samples.

Results

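The 37 genes described here encode chemokines, chemokine receptors, cytokines, and markers of the leukocytes and activated phagocytes that are looked for in the brain after intracerebral hemorrhage (ICH). They were chosen by name, with no threshold on their values but with earlier results of these data known, and all 37 were found among the 38621 genes of the deposited table. By role they comprise 6 CC chemokines, 6 CXC or CX3C chemokines, 3 chemokine receptors, 2 cytokines, 4 neutrophil genes, 3 monocyte genes, 3 border macrophage genes, 6 genes of phagocyte activation, and 4 lymphocyte genes. The 21 genes at 0.1 RPKM or more in 3 or more mice were tested, and the other 16 were taken as too low to read. RPKM is per exon length, so a long gene such as Ccr2 (3 to 24 reads) fell among the 16 and a short one such as Camp (0 to 4 reads) among the 21.

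Chemokines are small secreted proteins that draw leukocytes along their gradients through receptors on the leukocyte surface. CC chemokines act mainly on monocytes and lymphocytes, and the CXC chemokines made on demand, such as Cxcl1 and Cxcl2, act mainly on neutrophils. In a bleed, signals from red cells and injured tissue reach Toll-like receptors such as Tlr2 on microglia, and NF-κB and interferon pathways then switch on chemokine and cytokine genes. Neutrophils, monocytes, and later lymphocytes can enter from the blood, while border macrophages already reside in the meninges, the choroid plexus, and around vessels.

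RNA was sequenced from the brains of 9 male C57BL/6 mice, of which 3 were sham, 3 ICH, and 3 feb. Their age is not given in the sources used here. The ICH mice received 30 µl of their own whole blood by injection into the brain, and so did the feb mice, which had before that been given febuxostat, an inhibitor of xanthine oxidase, by gavage at 50 mg/kg once daily for 5 days. The sham mice were injected with saline according to the study's methods and are called untreated in the labels. The design has no group given febuxostat without blood, and the dissected region and the time after injection are not stated for these RNA samples.

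Levels are given as RPKM, the reads of a gene per kilobase of its exons, scaled to all reads counted on genes in that mouse, and the reads behind each value were recovered from the table. Between 23065757 and 29538009 reads were counted per mouse, so that 3 reads on a gene with 1 kb of exons are worth an RPKM of 0.102 to 0.130. Genes of neurons, astrocytes, and oligodendrocytes, 14 of 14 of them tested, summed to 1100 to 1647 RPKM per mouse, as the brain label states. The choroid plexus genes set the feb mice apart, with a summed level of 30.6 to 88.4 RPKM in feb, 458 to 967 in ICH, and 365 to 1035 in sham, none of the 8 genes being at 0. Of these choroid plexus genes, 8 were called lower in feb than in ICH, beside 1.05% of all genes. Against sham 7 were called lower in feb, beside 0.613% of all genes. Red cell and platelet genes, 8 of 10 tested, summed to 52.8 to 71.2 RPKM in sham, to 54.6 and 55.4 in ICH mice 2 and 3 and 150.6 in ICH mouse 1, and to 35.2 to 48.3 in feb. Of these 8 red cell and platelet genes, 4 were called lower in feb than in ICH (Hba-a1, Hba-a2, Hbb-bs, and Hbb-bt), beside 1.05% of all genes. Between feb and sham 3 were called lower, beside 0.613% of all genes. The parts of the choroid plexus and of the red cell and platelet genes in the levels below were not tested.

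The promoters of the inducible chemokines Cxcl1, Cxcl2, and Cxcl10 are shown because these genes are textbook targets of NF-κB and because all of them lay at the lower limit of what these data resolve. Each stretch runs from 250 to 51 bases before the start of the gene as RefSeq annotates it, on the strand of the gene. Capitals mark matches to GGGNNNTTC on either strand, a short form of the κB site, where neighbouring matches overlap and are written as 1 run. In Cxcl10 they also mark the match to GAAANNGAA, a short form of the interferon-stimulated response element.
Cxcl1, GRCm38.p6 chr5:90890995-90891194, plus strand: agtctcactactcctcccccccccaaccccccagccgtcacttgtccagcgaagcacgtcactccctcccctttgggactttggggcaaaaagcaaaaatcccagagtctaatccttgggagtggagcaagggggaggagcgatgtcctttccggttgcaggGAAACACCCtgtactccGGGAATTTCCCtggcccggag
Cxcl2, GRCm38.p6 chr5:90903649-90903848, plus strand: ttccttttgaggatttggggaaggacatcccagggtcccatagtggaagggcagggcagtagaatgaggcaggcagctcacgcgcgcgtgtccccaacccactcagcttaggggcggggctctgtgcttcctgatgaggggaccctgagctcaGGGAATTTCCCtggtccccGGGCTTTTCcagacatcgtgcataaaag
Cxcl10, GRCm38.p6 chr5:92348940-92349139, minus strand: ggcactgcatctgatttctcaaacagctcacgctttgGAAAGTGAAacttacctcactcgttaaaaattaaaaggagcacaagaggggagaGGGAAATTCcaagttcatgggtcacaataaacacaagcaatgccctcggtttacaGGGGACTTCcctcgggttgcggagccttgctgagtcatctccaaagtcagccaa

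Of the 37 genes, 28 had a promoter in the RefSeq table. The κB letters were present within 250 bases before the start of 7 of them, namely Cxcl1, Cxcl2, Cxcl10, Cxcr4, Il6, S100a9, and Tlr2, and in 11.8% of the 32851 promoters of that length in the table. The interferon letters were present in Ccl3, Ccr2, Cxcl10, and Spp1 and in 7.13% of all promoters. A match describes the letters only and is not evidence of a bound factor.

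The question of the ICH and sham comparison is which of these genes differ after blood injection. A gene was called when its unadjusted limma p was under 0.05 and its fold change over 2. By this rule 0 of the 21 tested genes were called between the ICH and sham groups, beside 2.53% of all 29025 genes tested (1.46% higher and 1.07% lower), with 1 at an unadjusted p under 0.05 (Cd163), beside 12.3% of all genes. Their log2 fold changes ran from -1.09 to 1.37 with a median of 0.29, and 15 were positive, while the median of all genes tested was 0.08. Groups that did not overlap were found for 2 of the 21 genes, Cd163 and Cxcl12, beside 19.4% of all genes. The lowest adjusted p among the 21 was 0.397.

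The feb and ICH comparison asks which of them differ when febuxostat precedes the blood. Again 0 of the 21 genes were called, beside 2.43% of all genes (1.38% higher and 1.05% lower), and 1 had an unadjusted p under 0.05 (Itgax), beside 11.1%. The log2 fold changes ran from -1.71 to 0.51 with a median of -0.41, 18 of the 21 being negative, while the median of all genes was -0.01. The groups did not overlap for Cx3cl1 and Itgax, 2 of 21, beside 17.2% of all genes. The lowest adjusted p was 0.447. Both comparisons use the same ICH mice, so their opposite medians are not independent of each other.

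Between the feb and sham groups 1 of the 21 genes was called, Ccl5, beside 2.2% of all genes (1.59% higher and 0.613% lower). Its adjusted p was 0.580, the lowest of the 21 and shared with Cxcl12, whose unadjusted p was slightly lower (0.0345 against 0.0349 by limma). These were the 2 genes at an unadjusted p under 0.05, beside 8.54% of all genes. The median log2 fold change was -0.13, beside 0.05 for all genes, and 2 genes did not overlap between the groups, Cxcl12 and Lyz2, beside 12.7% of all genes. The 95% interval of a log2 fold change in these comparisons had a half-width of 0.43 to 2.24, with a median of 1.05. It therefore still reached a doubling for 13 of the 21 genes between ICH and sham and a halving for 15 of the 21 between feb and ICH. A missed threshold in these data does not show that the groups were alike. With 3 mice against 3, an exact permutation test of any of these genes cannot go below p = 0.1 (two-sided). Since this was bulk tissue, fewer cells of a type and less RNA per cell cannot be told apart.

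**Figure D1:**
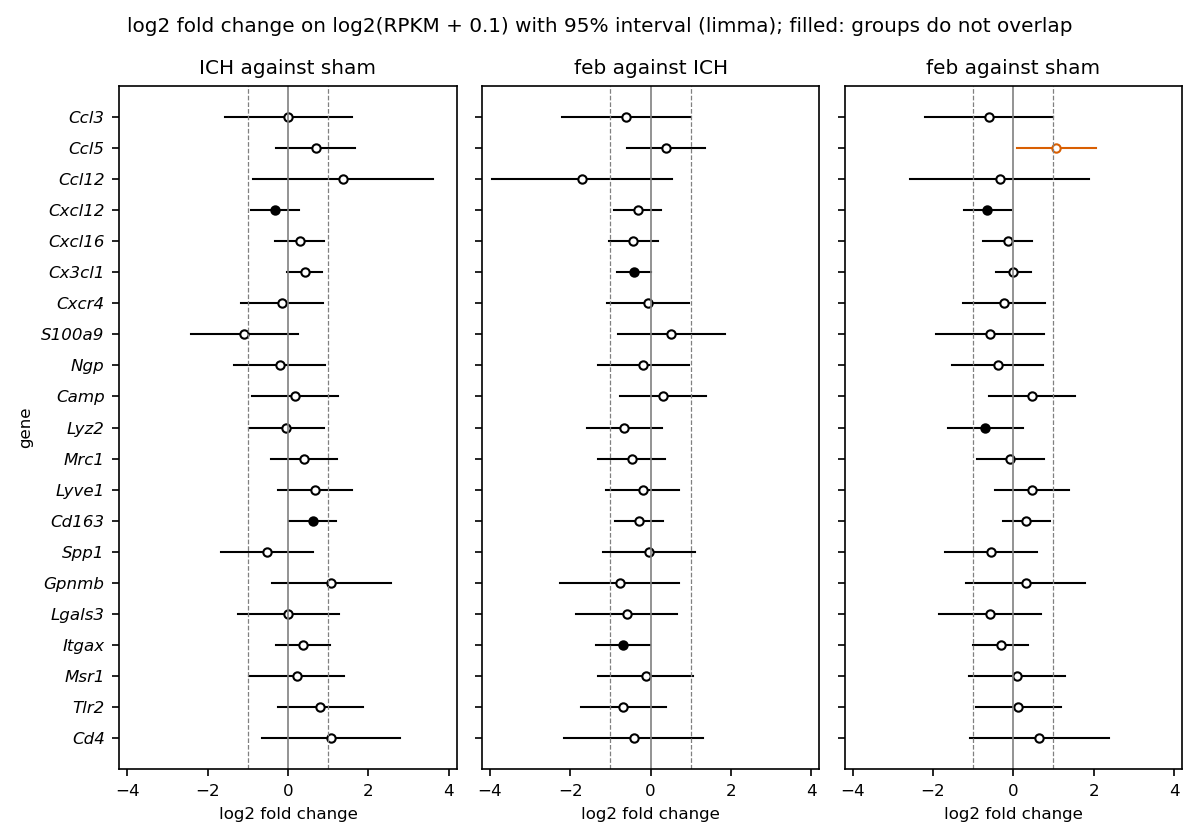
Log2 fold change (x axis) of each of the 21 tested genes (y axis) in the 3 comparisons, with points at the limma estimate (filled where the groups do not overlap), bars for its 95% interval, dashed lines at a doubling and a halving, and the called gene in orange. Most intervals span 0, and the intervals that leave it out belong to Cd163 for ICH minus sham, Itgax for feb minus ICH, and Ccl5 and Cxcl12 for feb minus sham.

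The 16 genes too low to read were Ccl2, Ccl4, Ccl7, Cxcl1, Cxcl2, Cxcl10, Ccr1, Ccr2, Tnf, Il6, S100a8, Ly6c2, Plac8, Cd3e, Cd8a, and Ms4a1, and the most reads that any of them had in a mouse were 24. They include the classic monocyte attractant Ccl2 and its receptor Ccr2, the neutrophil attractants Cxcl1 and Cxcl2, and the proinflammatory cytokines Tnf and Il6. Their reads together were 50, 59, and 28 in sham, 42, 80, and 13 in ICH, and 32, 17, and 24 in feb. For Ccr1, Il6, Ly6c2, Plac8, Cd3e, Cd8a, and Ms4a1 no mouse exceeded 0.0945 RPKM, and the highest level of the remaining low genes was 0.691, for Ccl4. The highest and the lowest of the 9 sums of reads thus both lay in the ICH group. At the other end, only 6 of the 37 genes had a median RPKM of at least 1 over the 9 mice, which were Cx3cl1, Spp1, Lyz2, Cxcl12, Cd4, and Cd163. At least 10 reads in every mouse were counted for 10 genes.

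**Figure D2:**
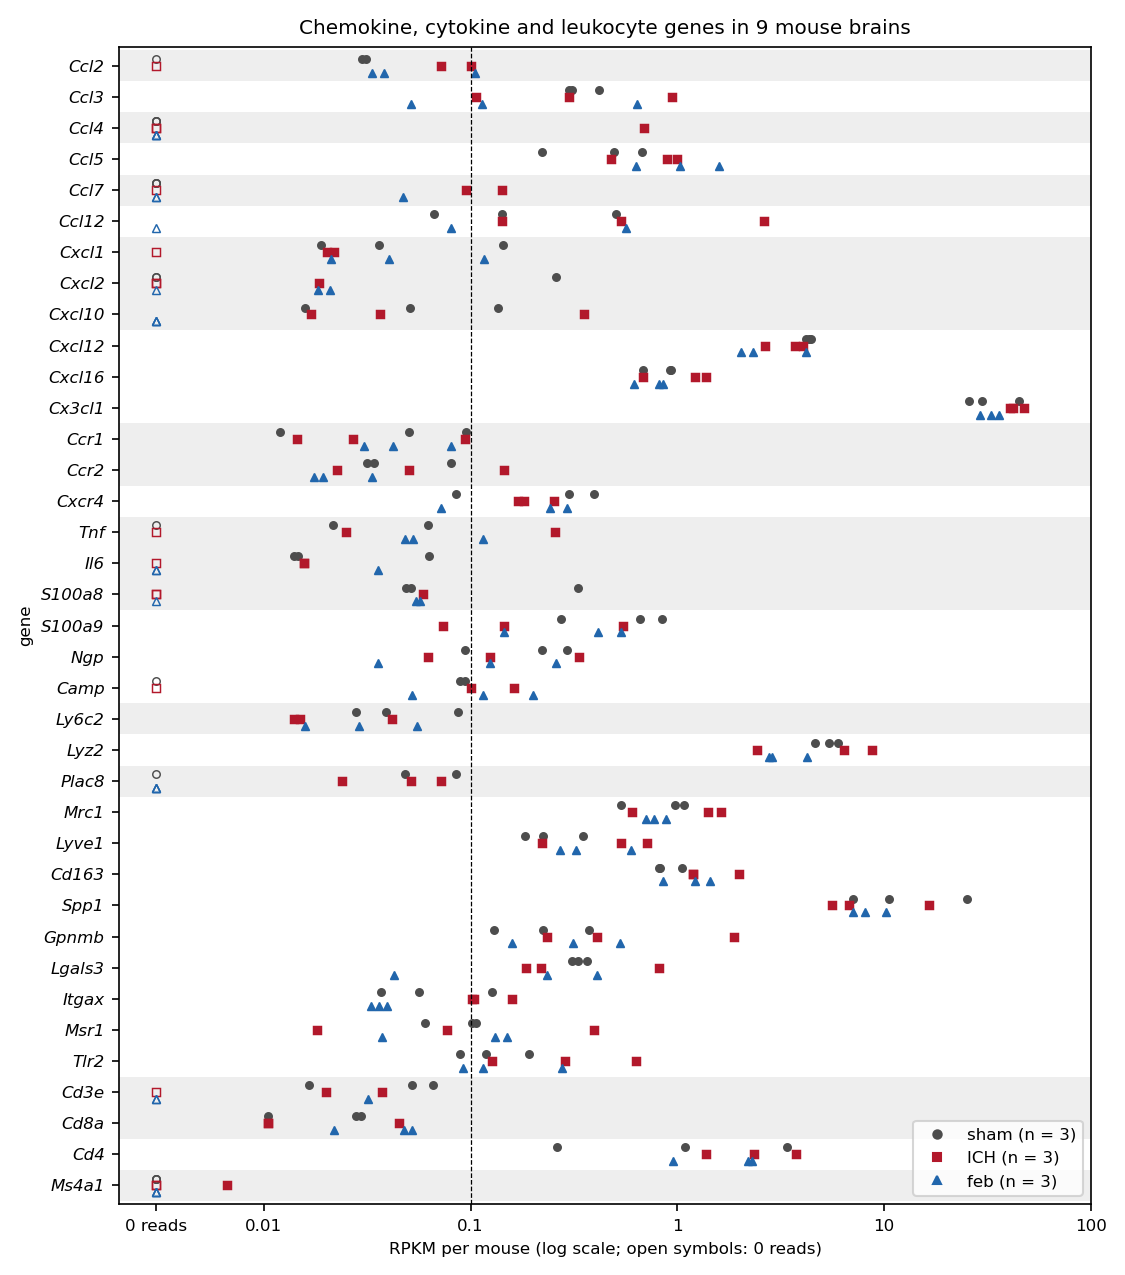
RPKM of the 37 genes (y axis) on a log axis (x axis), with 1 point per mouse, circles for sham, squares for ICH, triangles for feb, open symbols at the left for 0 reads, grey bands for the genes too low to read, and a dashed line at 0.1. Cx3cl1 and Spp1 lie highest, most inducible chemokines and cytokines lie near or under 0.1, and the points of the 3 groups are interspersed for most genes.

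Of the CC chemokines, Ccl5 (GRCm38 chr11:83525778-83530518), also known as RANTES and an attractant of T cells and monocytes, was the gene called between feb and sham. Its level was 0.494, 0.678, and 0.222 RPKM in sham, 0.893, 0.475, and 0.994 in ICH, and 0.630, 1.03, and 1.58 in feb, which rests on 6 to 35 reads. Feb mice 3 and 2 lie highest, yet feb mouse 1 was below sham mouse 2 and ICH mice 1 and 3, so the groups overlapped. The log2 fold change of feb over sham was 1.07 (SE 0.43, unadjusted p = 0.0349, adjusted p = 0.580 by limma, n = 3 per group), and 2 of the 3 feb mice were above every sham mouse. The call was lost with several other settings, among them the replicate block (log2 fold change 1.07), equal medians (0.96), and leaving out sham mouse 1 (1.16), sham mouse 3 (0.72), feb mouse 2 (1.06), or feb mouse 3 (0.78).

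Ccl12, a ligand of the monocyte receptor Ccr2 in mice, showed the widest spread of the CC chemokines. It was at 0.504, 0.142, and 0.0662 RPKM in sham, 0.532, 2.62, and 0.142 in ICH, and 0.563, 0, and 0.0807 in feb. The ICH mean of 1.098 ± 1.33 RPKM (SD, n = 3) rested on mouse 2, with 37 reads, which was 4.66 times the next highest mouse, a feb mouse. Ccl3, a ligand of Ccr1 made by activated microglia, had its peak in the same animal. It was at 0.309, 0.300, and 0.418 RPKM in sham, 0.107, 0.943, and 0.299 in ICH, and 0.641, 0.0517, and 0.113 in feb, with 1 to 19 reads. The groups of both genes overlapped in every comparison.

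Ccl4, a chemokine of activated macrophages and microglia, had 12 reads in ICH mouse 2 and 0 in all other mice. Ccl7, another Ccr2 ligand, had 3 reads in that mouse, 2 in ICH mouse 3, 1 in feb mouse 1, and 0 elsewhere. Ccl2 had at most 3 reads in any mouse, and none of its levels was above 0.104 RPKM. Of the 21 CC chemokine genes listed for this family, 12 were tested. Ccl21a, a ligand of the lymphocyte receptor Ccr7, was the 1 gene called higher between ICH and sham, beside 1.46% of all genes. It was at 0.923 ± 0.248 RPKM in sham, 1.92 ± 0.197 in ICH, and 1.81 ± 0.209 in feb (SD, n = 3). Its log2 fold change was 1.01 (SE 0.20, adjusted p = 0.284 by limma), and since near-identical copies of this gene exist its reads may be shared with them. Between feb and ICH 0 of the 12 were called, and between feb and sham Ccl5 alone, beside 2.43% and 2.2% of all genes.

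Among the CXC and CX3C chemokines, Cx3cl1 (fractalkine, chr8:94772009-94782427), which neurons carry on their membrane and microglia sense through Cx3cr1, had the highest level of all 37 genes. It was at 25.7, 44.8, and 29.8 RPKM in sham, 41.9, 40.7, and 47.5 in ICH, and 36.0, 33.0, and 28.9 in feb. All feb mice lay below all ICH mice, while sham mouse 2 lay among the ICH mice. The log2 fold change of feb over ICH was -0.41 (SE 0.19, unadjusted p = 0.0589, adjusted p = 0.461 by limma, lower in 3 of 3 feb mice), so it was not called.

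Cxcl12 (chr6:117168535-117181367), the ligand of Cxcr4 that is made by endothelial, meningeal, and other stromal cells, was most even in sham, at 4.32, 4.42, and 4.168 RPKM. It was at 3.72, 2.64, and 4.05 in ICH and at 2.33, 4.167, and 2.04 in feb. All ICH and feb mice were below all sham mice, though feb mouse 2 differed from the lowest sham mouse by less than the value of 1 read. The log2 fold change was -0.32 for ICH over sham (SE 0.26, unadjusted p = 0.241, adjusted p = 0.593 by limma) and -0.65 for feb over sham (SE 0.26, unadjusted p = 0.0345, adjusted p = 0.580), and neither exceeded the fold limit. Endothelial genes, 8 of 8 tested, summed to 47.7 to 59.1 RPKM in sham, 51.0 to 56.3 in ICH, and 36.1 to 45.9 in feb, with 5 of the 8 lower in feb than in sham at an unadjusted p under 0.05, beside 2.9% of all genes. Meningeal fibroblast genes, 9 of 9 tested, summed to 11.99 to 35.7 RPKM in sham, 13.95 to 34.3 in ICH, and 8.46 to 15.7 in feb. Of these 9, 2 were called lower in feb than in ICH and 3 lower than in sham, beside 1.05% and 0.613% of all genes. None of either list was at 0 in all mice, and their part in the Cxcl12 level was not tested.

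Cxcl16, a membrane-bound ligand of Cxcr6 made by macrophages, ranged from 0.617 to 1.37 RPKM, with ICH mice 2 and 1 highest at 1.37 and 1.22 and ICH mouse 3 at 0.683. Its exons overlap those of Zmynd15 on the other strand, a gene at 0.0428 to 0.224 RPKM. Cxcl10, the interferon-induced ligand of Cxcr3 on T cells, had 9, 3, and 1 reads in sham, 2, 21, and 1 in ICH, and 0 in each feb mouse. The 0 reads of the feb group allow a level of up to 0.0178 RPKM by counting error alone, and the ICH level rested on mouse 2. Exons of Cxcl10 overlap Art3 on the other strand, which was at 0.671 to 0.956 RPKM in all mice, and the strand setting of the counting is not stated. Cxcl1 had 0 to 7 reads and Cxcl2 0 to 14, and of both the highest count was in sham mouse 2. Of 16 deposited CXC, CX3C, and XC chemokine genes, 7 were tested, and 0 were called in any comparison.

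The chemokine receptors Ccr1, which binds Ccl3 and Ccl5, and Ccr2, which brings monocytes out of the bone marrow, stayed at or below 7 and 24 reads. The 24 reads of Ccr2 were counted in ICH mouse 1, against 9 and 4 in the other ICH mice and 16, 6, and 6 in sham. Cxcr4, the receptor of Cxcl12, was the 1 receptor of the 3 that was tested. It ranged from 0.0846 to 0.394 RPKM in sham, 0.169 to 0.252 in ICH, and 0.0719 to 0.292 in feb, so the groups overlapped throughout. In the wider receptor list, 11 of 22 genes were tested and 0 were called in any comparison.

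The cytokines Tnf and Il6, made early by microglia and macrophages, had 0 to 11 and 0 to 4 reads. The 11 reads of Tnf were in ICH mouse 2, and the 4 of Il6 in sham mouse 2. Of 18 cytokine genes, 10 were tested, 0 being called between ICH and sham. Il13, with at most 6 reads, was called higher in feb than in ICH (adjusted p = 0.313 by limma) and than in sham (0.565). Beside it, 1.38% and 1.59% of all genes were called higher in those comparisons. All 15 cytokine receptor genes were tested and 0 were called in any comparison. Of 28 tested genes of Toll-like receptor and NF-κB signaling, 0 were called in any comparison. Their median log2 fold changes were 0.25 for ICH over sham and -0.26 for feb over ICH, beside 0.08 and -0.01 for all genes. For ICH over sham 25 of the 28 were positive, beside 17728 of all 29025 genes. For feb over ICH, which uses the same ICH mice and so is not independent, 25 of the 28 were negative, beside 15153 of all genes. ICH mouse 2 was highest for 19 of the 28, and their sum was 68.5 RPKM in it against 46.8 to 59.4 in the other mice.

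The neutrophil genes were near the lower end of what these libraries resolve. S100a9, which with S100a8 forms calprotectin, the main cytosolic protein of neutrophils, was at 0.843, 0.660, and 0.273 RPKM in sham, 0.548, 0.146, and 0.0731 in ICH, and 0.145, 0.531, and 0.415 in feb, with 1 to 13 reads. The higher values thus lay with the sham mice, and the groups overlapped. S100a8 had 6 reads in sham mouse 2 and 0 or 1 elsewhere. The granule genes Ngp and Camp had 1 to 10 and 0 to 4 reads. Ly6g, the surface marker by which mouse neutrophils are sorted, and the granule protease gene Elane had at most 1 and 2 reads in any mouse. Of 17 neutrophil genes, 9 were tested and 0 were called between ICH and sham. Fpr1, a receptor for formylated bacterial and mitochondrial peptides, was called higher in feb than in ICH, beside 1.38% of all genes. Its level was 0.742, 0.658, and 1.57 RPKM in feb against 0.308, 0.230, and 0.606 in ICH (adjusted p = 0.406 by limma).

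Of the monocyte genes, Lyz2 (chr10:117277334-117282274), which encodes lysozyme of monocytes, macrophages, and neutrophils, was the 1 tested gene. It was at 5.96, 5.38, and 4.64 RPKM in sham, 8.74, 6.43, and 2.41 in ICH, and 4.24, 2.88, and 2.77 in feb. The ICH mice held both the highest and the lowest value, and all feb mice were below all sham mice. The log2 fold change of feb over sham was -0.69 (SE 0.41, unadjusted p = 0.125, adjusted p = 0.651 by limma), so it was not called. The part of choroid plexus and meningeal tissue in the Lyz2 level was not tested. Reads of Lyz2 may be shared with the near-identical Lyz1. Ly6c2, the surface marker of inflammatory monocytes, had 1 to 7 reads and shares most of its sequence with Ly6c1. Plac8 had 4, 2, and 0 reads in sham, 2, 3, and 1 in ICH, and 0 in all feb mice, which allows up to 0.0252 RPKM there. Of 13 monocyte genes 5 were tested, and Ms4a6c was called higher in feb than in sham, beside 1.59% of all genes. Its level was 0.682, 0.348, and 0.804 RPKM in feb against 0.198, 0.149, and 0.104 in sham (adjusted p = 0.565 by limma).

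The 3 border macrophage genes were all tested. Cd163 (chr6:124304656-124330527), the receptor that takes up hemoglobin bound to haptoglobin, was the 1 gene of the 21 with an unadjusted p under 0.05 between ICH and sham. It was at 0.812, 1.06, and 0.821 RPKM in sham, 1.99, 1.19, and 1.20 in ICH, and 1.21, 0.849, and 1.44 in feb. Every ICH mouse was above every sham mouse, and the feb mice spread across both. The log2 fold change of ICH over sham was 0.62 (SE 0.26, unadjusted p = 0.0426, adjusted p = 0.397 by limma, higher in 3 of 3 ICH mice), under the fold limit. The highest value belonged to ICH mouse 1, the mouse with the highest red cell and platelet sum, and leaving mice out in turn gave 0.38 to 0.73. The unadjusted limma p exceeded 0.05 without sham mouse 1 (0.106), sham mouse 3 (0.106), ICH mouse 1 (0.160), or feb mouse 1 (0.0573). Without any other mouse it stayed under 0.05. It also exceeded 0.05 with equal medians, quantile normalization, the replicate block, and a filter at 1 RPKM, and not with the remaining settings.

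Mrc1, the mannose receptor of resident border macrophages, was at 1.08, 0.534, and 0.972 RPKM in sham, 1.62, 1.41, and 0.605 in ICH, and 0.878, 0.703, and 0.769 in feb. Lyve1, a hyaluronan receptor of perivascular and meningeal macrophages and of lymphatic vessels, was at 0.348, 0.223, and 0.183 in sham, 0.714, 0.534, and 0.222 in ICH, and 0.324, 0.271, and 0.594 in feb. For both genes ICH mice 1 and 2 lay above every sham mouse and ICH mouse 3 within the sham range. The meningeal fibroblast sum was 34.3 and 27.9 RPKM in ICH mice 1 and 2 and 13.95 in ICH mouse 3, and the choroid plexus sum was 836, 967, and 458. The part of these tissues in the border macrophage levels was not tested. Of 11 border macrophage genes 9 were tested and 0 were called in any comparison.

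**Figure D3:**
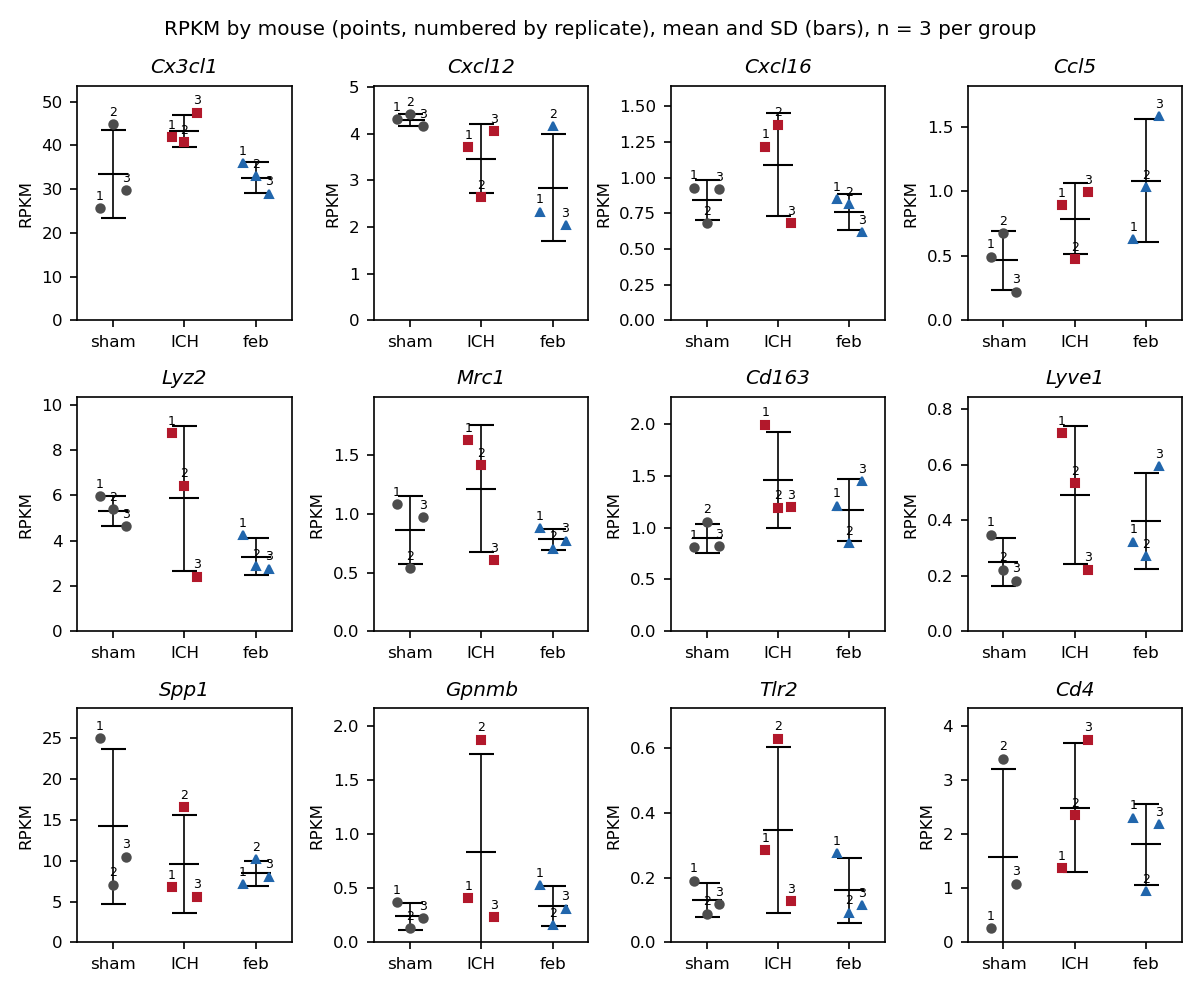
RPKM (y axis from 0, scale set per panel) of 12 genes in the sham, ICH, and feb groups, with 1 point per mouse numbered by replicate, a line at the mean, and bars of 1 SD (n = 3), cut at 0 where they would pass below it. Feb lies below ICH without overlap for Cx3cl1, ICH lies above sham without overlap for Cd163, and ICH mouse 2 stands apart for Gpnmb and Tlr2.

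Of the 6 genes of phagocyte activation, Spp1 (osteopontin), a secreted protein of activated microglia and macrophages that other brain cells also make, had the highest level. It was at 25.0, 7.06, and 10.5 RPKM in sham, 6.77, 16.5, and 5.61 in ICH, and 7.11, 10.2, and 8.08 in feb, so that a sham mouse was highest and an ICH mouse second. Its exons overlap those of Gm42793 on the same strand. Gpnmb, a membrane glycoprotein of lipid-laden phagocytes, was at 0.374, 0.129, and 0.224 in sham, 0.408, 1.87, and 0.234 in ICH, and 0.528, 0.158, and 0.313 in feb. The 321 reads of ICH mouse 2 gave a level 3.55 times that of the next mouse, and among the other 8 mice the groups overlapped.

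The same animal was highest for the remaining genes of this role. Tlr2, which senses bacterial lipoproteins and products of injured tissue, was at 0.191, 0.0889, and 0.118 RPKM in sham, 0.285, 0.631, and 0.127 in ICH, and 0.276, 0.0920, and 0.115 in feb. Msr1, a scavenger receptor, was at 0.0603 to 0.107 in sham, at 0.0773, 0.396, and 0.0181 in ICH, and at 0.0375 to 0.150 in feb. Lgals3 (galectin-3) was at 0.310 to 0.364 in sham, at 0.220, 0.819, and 0.185 in ICH, and at 0.0426 to 0.407 in feb. ICH mouse 2 exceeded the next highest mouse 2.22 times for Tlr2, 2.63 times for Msr1, and 2.01 times for Lgals3, while ICH mouse 3 lay below the sham range for Msr1 and Lgals3.

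Itgax (CD11c, chr7:128129547-128150657), an integrin of dendritic cells and activated microglia, was the 1 gene with an unadjusted p under 0.05 between feb and ICH. It was at 0.0564, 0.127, and 0.0370 RPKM in sham, 0.102, 0.158, and 0.103 in ICH, and 0.0393, 0.0330, and 0.0361 in feb. The feb mice, with 4 or 5 reads each, were below all ICH mice, with 12 to 20. The gene reached 0.1 RPKM only in the 3 ICH mice and in sham mouse 2, so it passed the filter for testing through the group where it was high, and its p does not stand as support for a difference. The log2 fold change was -0.69 on the log2(RPKM + 0.1) scale, which understates changes near 0.1 (SE 0.30, unadjusted p = 0.0474, adjusted p = 0.447 by limma, lower in 3 of 3 feb mice). With voom on the recovered reads it was -1.61 and the gene was called, at an adjusted p of 0.257. In the wider list of phagocyte activation genes, 20 of 20 were tested and 0 were called in any comparison.

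Lymphocyte genes were low apart from Cd4, the co-receptor of helper T cells that macrophages of some species also carry. Cd4 was at 0.260, 3.40, and 1.09 RPKM in sham, 1.38, 2.35, and 3.75 in ICH, and 2.30, 0.953, and 2.18 in feb, on 31 to 396 reads. The spread within the sham group alone, from the lowest to the second highest of the 9 mice, covered nearly the whole range. The defining T cell gene Cd3e, whose exons overlap another gene on the other strand, had 0 to 7 reads in any mouse, Cd3d and Cd3g at most 3, and Cd8a 1 to 5, while Cd247, another gene of the T cell receptor complex, was at 1.81 to 2.48 RPKM in all mice. Ms4a1 (CD20), the marker of B cells, had 1 read in 1 mouse.

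Of 14 T cell genes 8 were tested, and Trbc2, a constant segment of the T cell receptor, was called higher in ICH than in sham, beside 1.46% of all genes. Its level was 1.003, 1.099, and 2.26 RPKM in ICH against 0.832, 0.0553, and 0.3599 in sham (adjusted p = 0.390 by limma). Of 10 B cell genes 2 were tested, and Ighm, the heavy chain of IgM, was called lower in feb than in ICH, beside 1.05% of all genes. Its level was 2.06, 2.04, and 1.29 RPKM in feb against 3.40, 3.71, and 5.55 in ICH (adjusted p = 0.324 by limma). None of the 7 NK cell genes reached the level for testing. Of 10 dendritic cell genes 9 were tested, and 0 were called in any comparison. The 6 genes shared by all leukocytes were all tested and 0 were called, the sums being 11.4 to 14.8 RPKM in sham, 13.7 to 24.5 in ICH, and 12.3 to 13.5 in feb. Of 11 genes for leukocyte adhesion 8 were tested and 0 were called, with 4 lower in feb than in ICH at an unadjusted p under 0.05, beside 6.16% of all genes and 4 of the 8 endothelial genes.

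For many, but not all, of the 21 tested genes the spread between mice was widest within the ICH group. The SD was larger in sham than in ICH for Cx3cl1 (10.1 against 3.64 RPKM), Spp1 (9.54 against 6.01), and Cd4 (1.63 against 1.19). It was also larger in sham for Cxcr4, S100a9, and Itgax, and it was largest in feb for Cxcl12 and Ccl5. ICH mouse 2 was the highest of the 9 mice for 8 of the 21 tested genes, or 38.1%, beside 16.2% of all genes tested. These were Ccl3, Ccl12, Cxcl16, Gpnmb, Lgals3, Itgax, Msr1, and Tlr2. The next highest mouse was feb mouse 1 for Ccl3, Ccl12, Gpnmb, and Lgals3, and ICH mouse 1 for Cxcl16 and Tlr2. It was feb mouse 3 for Msr1 and sham mouse 2 for Itgax. Of the genes too low to test, ICH mouse 2 was highest for Ccl4, Ccl7, Cxcl10, and Tnf. Sham mouse 2 was highest for Cxcl1, Cxcl2, Ccr1, Il6, S100a8, and Cd3e, and the remaining low genes were highest in other mice. ICH mouse 1 was highest for 5 of the 21 tested genes, Lyz2, Mrc1, Lyve1, Cd163, and Ngp (23.8%, beside 14.9% of all genes tested). ICH mouse 3 was highest for 2, Cx3cl1 and Cd4 (9.52%, beside 7.63%).

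**Figure D4:**
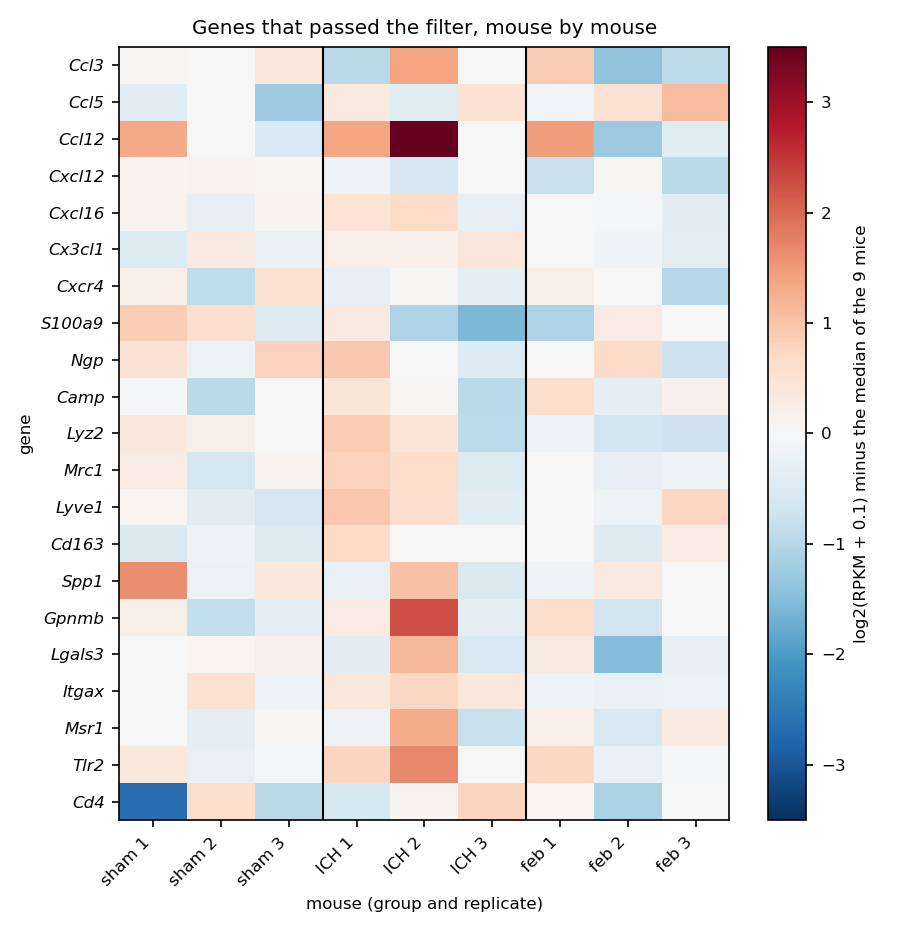
Log2(RPKM + 0.1) of the 21 tested genes (one line each) in the 9 mice (columns, by group), as the difference from the median of the 9 mice for that gene, with red above and blue below it and a scale of ±3.5. ICH mouse 2 is red across Ccl3, Ccl12, and the phagocyte activation genes. Feb mouse 1 is also above the median for Ccl3, Ccl12, Gpnmb, Lgals3, Msr1, and Tlr2, though less than ICH mouse 2. Of these genes, ICH mouse 1 is above the median for Ccl12, Gpnmb, Itgax, and Tlr2 only, and ICH mouse 3 for Itgax only.

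In ICH mouse 2 the 14 microglia genes summed to 193 RPKM, against 76.5 to 127 in the other 8 mice, and 12 of the 14 were highest in it. The all-leukocyte genes summed to 24.5 RPKM against 11.4 to 17.7, with 6 of 6 highest there, and the leukocyte adhesion genes to 28.9 against 14.8 to 21.2. Not all immune lists were high in it, since the CC chemokine sum of 19.98 RPKM and the neutrophil sum of 4.86 lay within the ranges of the other mice (11.03 to 21.2 and 2.35 to 5.22), and the wider phagocyte activation list had its lowest sum there, at 834 against 941 to 1247, most of it from Apoe at 589 RPKM, although 16 of its 20 genes were highest in that mouse. The sum of the brain cell genes was also highest in that mouse, at 1647 RPKM against 1100 to 1385, and Lcn2, an acute phase protein of reactive astrocytes and neutrophils, was at 1.52 RPKM against at most 0.380 elsewhere. The part of these values in the chemokine and phagocyte levels was not tested. Between feb and ICH, 3 of the 14 microglia genes were called lower (Aif1, Fcrls, and Olfml3, adjusted p = 0.259 to 0.378 by limma), beside 1.05% of all genes, and 9 of 14 were lower at an unadjusted p under 0.05, beside 6.16%.

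Leaving out 1 ICH mouse moved the medians of the 21 genes in opposite ways, depending on the mouse. Without ICH mouse 2 the median log2 fold change of the 21 genes was 0.12 for ICH over sham and -0.24 for feb over ICH, and 0 genes were called in either. Without ICH mouse 3 the medians were 0.51 and -0.57, and 3 genes were called higher in ICH than in sham (Gpnmb, Lyve1, and Tlr2) and 3 lower in feb than in ICH (Ccl12, Lyz2, and Tlr2), at adjusted p of at least 0.355 and 0.221. Without sham mouse 2, which had the second highest Cd4 level, Cd4 was called higher in both ICH and feb than in sham. Without sham mouse 3 or without ICH mouse 1, S100a9 was called lower in ICH than in sham, and without feb mouse 1, Ccl12 was called lower in feb than in ICH.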

How the data were processed

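Brain RNA from 9 mice, 3 per group, was analysed, and groups were taken from the sample labels. The authors depleted rRNA, marked cDNA with 8-base UMIs in a stranded kit, trimmed reads with Trimmomatic 0.36, merged reads sharing a UMI, aligned them to GRCm38, counted exon reads with featureCounts (Subread 1.5.1), and deposited RPKM values with the exon length of each gene. They tested with edgeR 3.12.1. Whether strand was used, which annotation release was counted, and what was done with multi-mapped reads are not given in the sources used here.

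RPKM is not a count, so limma 3.58.1 (R 4.3.3; lmFit and eBayes with trend) was run on log2(RPKM + 0.1) in 1 fit of all 9 samples without a block. Genes had to reach 0.1 RPKM in 3 or more samples, which left 29025. Called genes had an unadjusted p under 0.05 and a fold change over 2, and Benjamini-Hochberg adjusted p-values cover all genes tested. Errors are SD of RPKM or SE of log2 fold changes. The intervals of log2 fold changes rest on the limma SE, and so on the spread between mice. Floors for 0 reads (3 reads per group) cover counting error only. Whole reads were recovered, within 0.01 of a read, for at least 99.8% of the values in each sample. On simulated reads for 29040 genes compared as ICH with sham, 165 of 200 genes changed 4-fold (82.5%) had an adjusted p under 0.05. So did 27 unchanged genes. The changed genes were drawn from those above a minimum of reads, and the simulated spread was the same for all genes. That spread was smaller than the one between mice for genes such as Ccl12 and Gpnmb. The share recovered therefore does not carry over to genes with a wider spread or fewer reads. The rule used for calls here, with an unadjusted p and a fold limit, was not tried on these reads.

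The genes and the lists were chosen with earlier results of these data known. Every gene is named with its level. A fold change is printed only where its unadjusted p was under 0.05 or its groups did not overlap, and a gene under an RPKM of 0.1 in more than 6 samples is stated as too low. Of the lists, single genes are named only where called or beside a result of the 37 genes. Python 3.11.15 served for tables and plots (pandas 2.3.3, numpy 2.4.6, matplotlib 3.10.9, scipy 1.17.1). Promoters are those of RefSeq for GRCm38.p6. Il17a, Il10, Cxcl15, Ctsg, and Cxcr1 are not analysed here. The alternatives were other pseudocounts (1 and 0.01), quantile normalization, equal medians, a filter at 1 RPKM or none, no trend, a fit of only the groups compared, the replicate number as a block, voom on the recovered reads, and leaving out each mouse.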

Additional observations from a re-analysis of the deposited data

How the results depend on the processing

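With a pseudocount of 1, 158 genes were called between ICH and sham, 128 between feb and ICH, and 91 between feb and sham, in place of 735, 706, and 639. With an RPKM of at least 1 they were 346, 287, and 263, and voom on the recovered reads called 458 between feb and ICH. Equal medians turned the split of ICH over sham from 423 higher and 312 lower to 296 and 443 (quantile normalization 317 and 406, a pseudocount of 1 75 and 83), and that of feb over sham from 461 and 178 to 300 and 252 (quantile 295 and 245). For feb over ICH, voom turned 401 higher and 305 lower to 201 and 257. Leaving out each mouse gave 606 to 1288, 607 to 920, and 450 to 1136 genes; 1288 and 1136 were without sham mouse 2, and 1016 of feb over sham without feb mouse 2. Of the 37 genes, leaving out each mouse gave 0 to 3, 0 to 3, and 0 to 2 called, and 3 to 10, 2 to 6, and 2 to 8 without overlap, where fewer mice overlap less by construction. Voom called 1 of them between feb and ICH (Itgax). Ccl5 was the 1 called between feb and sham, and 0 were called with a pseudocount of 1 (0.49), an RPKM of at least 1 (Ccl5 not tested), equal medians (0.96), quantile normalization (0.94), and the replicate block (1.07). Without a filter 4 genes did not overlap between feb and ICH and 4 between feb and sham, and with an RPKM of at least 1, 1 between feb and ICH. The cause of these changes was not tested. The 7 fold changes printed for the 37 genes kept their sign under all alternatives run, and that of Ccl21a was not run under them.

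Same-numbered mice did not deviate together (correlations of -0.127 to 0.019 across genes), and those of differently numbered mice were -0.121 to 0.166. The numbers were therefore not treated as a pairing, though with 3 mice per group this cannot exclude one. A replicate block called 717, 684, and 615 genes. Between 0 and 24 reads limited 16 of the 37 genes.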
